A study of Homo sapiens and Mus musculus with 13 samples.

Results

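Among mouse haematopoietic progenitor clones that carry the same NPM1c knock-in, 35 of the 37168 genes with a symbol were abundant in at least 1 clone and close to absent in another. These members were chosen by their normalized read count, the number of reads of a gene divided by a size factor per library: the largest value over the 3 clones was at least 100 and the smallest at most 10. They made up 0.343% of the 10190 genes with a symbol whose largest clone value reached 100. The selection rests on the clone values themselves, so differences between clones are described below and not tested. Clone 4 stood apart in 27 of the 35 members, clone 12 in 5 and clone 18 in 3. The members fell into 14 predicted gene models and 21 genes with other symbols.

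The cells are a mouse haematopoietic progenitor line immortalized by HOXB8. Every group shares that immortalization and was cultured with stem cell factor and beta-estradiol. The knock-in cells were 3 clones, each grown from a single cell after CRISPR/Cas9 insertion of NPM1ca-GFP (NPM1c knock-in, clones 12, 18 and 4), and the unedited cells were 2 libraries of the wild-type parental line (parental 1 and 2). Each clone was sequenced as 1 library, so a clone and its library preparation cannot be told apart, and whether the parental pair was grown as 2 cultures is not stated in the labels. The other 8 libraries of the series are human and were not used here.

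Clone numbers follow the sample titles. The value columns of the clones titled 12, 18 and 4 are headed with the numbers 4, 12 and 18 in that order, so if the headings are right, clone 12 here is clone 4, clone 18 is clone 12 and clone 4 is clone 18. The clone libraries held 7358340 (clone 4) to 12235174 reads (clone 12), parental 1 held 9728260 and parental 2 held 99557475. A read was worth 1.23, 1.59 and 2.05 normalized reads in clones 12, 18 and 4, and 1.55 and 0.153 in parental 1 and 2. Where a library had no read, the limit of 3 reads allows a value of up to 3.69, 4.76 and 6.15 in clones 12, 18 and 4, and 4.66 and 0.458 in parental 1 and 2. These limits cover counting error only. Npm1, the targeted gene, was at 15141, 14144 and 14305 in clones 12, 18 and 4 and at 25695 and 25714 in parental 1 and 2 (log2 fold change -0.82, SE 0.0673, adjusted p = 0.000533, limma). Hoxb8 was at 5745, 6629 and 4101 in clones 12, 18 and 4 and at 6732 and 6080.2 in parental 1 and 2, with an adjusted p of 0.438 by limma. The progenitor markers Kit and Cd34 were abundant in all 5 libraries, with at least 5263 and 14739 normalized reads.

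NPM1c is a mutant form of the nucleolar protein nucleophosmin that is retained in the cytoplasm and is frequent in acute myeloid leukaemia. Progenitors immortalized by HOXB8 are known to mature along the neutrophil and monocyte lineages once HOXB8 activity is withdrawn. Cells descended from a single founder can keep expression states of that founder, such as the choice of the inactive X chromosome.

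**Figure D1:**
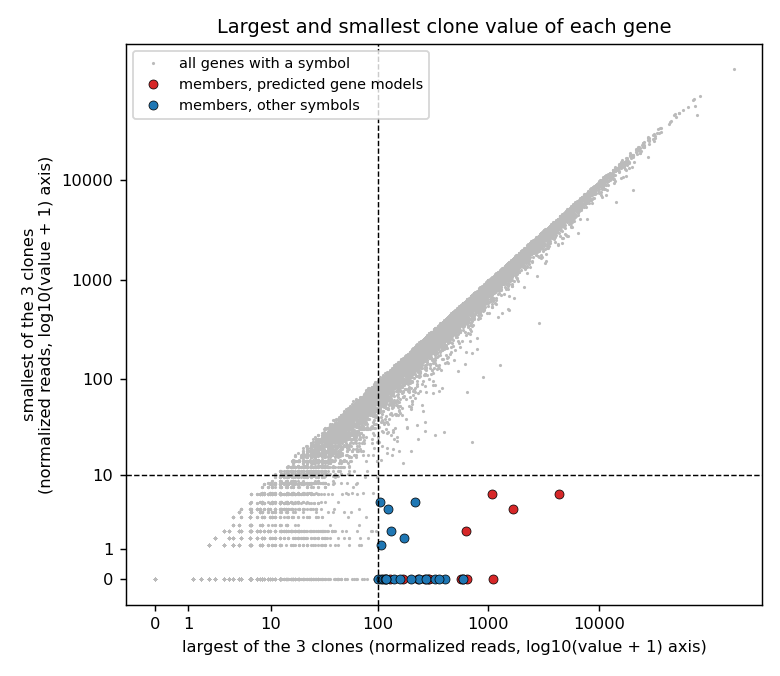
Largest against smallest value over the 3 knock-in clones for each gene with a symbol, in normalized reads on log10(value + 1) axes. Dashed lines mark the thresholds of 100 and 10, the 14 predicted gene models are red and the other 21 members blue, and most genes lie near the diagonal.

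The predicted gene models were high in clones 18 and 12 and almost without reads in clone 4 and in the parental libraries. Symbols of the form Gm with a number denote gene models predicted from the genome sequence. Several of them, Gm10800 and Gm10801 among them, are known to overlap major satellite repeats, the tandem repeats of mouse pericentromeric heterochromatin. Together the 14 models had 11974 normalized reads in clone 18 and 7640 in clone 12, against 18.5 in clone 4, and parental 1 and 2 had 52.8 and 43.7. This was 0.0801% of all reads in clone 18 and 0.0507% in clone 12. Clone 4 held 9 such reads in all.

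Gm16869 was the most abundant model, at 4335 normalized reads in clone 18, 2921 in clone 12 and 6.15 in clone 4, with 17.1 and 19.1 in parental 1 and 2. Gm10800 was at 1663, 950.4 and 4.10 in clones 18, 12 and 4 and at 17.1 and 5.50 in parental 1 and 2. Gm10718 was at 1095 and 706.6 in clones 18 and 12 with no read in clone 4, and had no read in parental 1 and 3.82 in parental 2. In all 14 models clone 18 was the highest library, clone 12 came next, and clone 4 and both parental libraries lay far below.

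Gm10801 was at 1076, 631.5 and 6.15 in clones 18, 12 and 4 and at 3.11 and 3.21 in parental 1 and 2. Gm11167 was at 643.6 and 439.5 in clones 18 and 12 with no read in clone 4, and at 4.66 and 1.98 in parental 1 and 2. The remaining 9 models (Gm10715, Gm10716, Gm10717, Gm10719, Gm10720, Gm10721, Gm10722, Gm11168 and Gm17535) also had clone 18 highest and clone 12 next. Their lowest values were those of Gm10716, at 129.98 in clone 18 and 76.3 in clone 12, with no read in clone 4 or parental 1 and 0.305 in parental 2. Of the 14 models, 10 had no read in clone 4, 6 had none in parental 1, and each had at least 1 in the deeper parental 2.

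**Figure D2:**
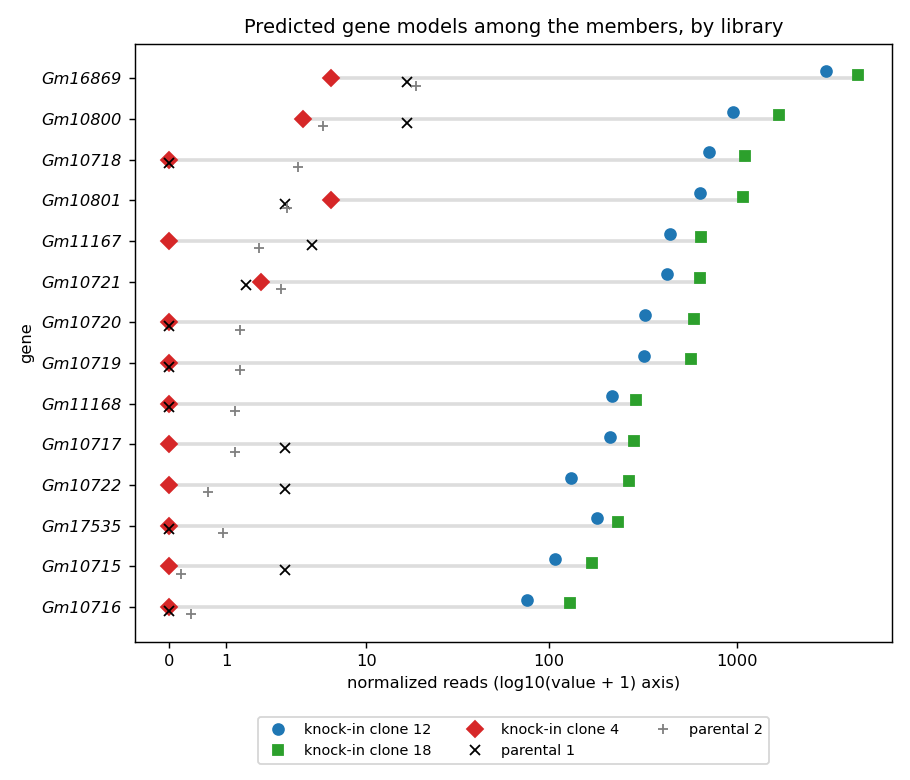
Normalized reads of the 14 predicted gene models in each library, on a log10(value + 1) axis, with a grey bar over the range of the clones. Clones 18 and 12 lie between 76.3 and 4335, while clone 4 stays at or below 6.15 and the parental libraries at or below 19.1.

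The ratio of clone 18 to clone 12 was similar from model to model, from 1.29 to 2.02 with a median of 1.56. For the summed reads it was 1.57 (95% exact counting interval 1.52 to 1.62). The sum was 649-fold higher in clone 18 than in clone 4 (341 to 1419) and 414-fold higher in clone 12 than in clone 4 (218 to 905). Against the deeper parental 2 it was 274-fold higher in clone 18 (244 to 310) and 175-fold higher in clone 12 (155 to 198). These intervals cover counting error only, in 1 library per clone, and pairs of clone libraries differed by more than that. The models were chosen by these clone values, which the intervals do not allow for, so the ratios describe them and are not a test between clones. Without Gm16869 the sums were 7639 and 4719 in clones 18 and 12 and 12.3 in clone 4, with 35.7 and 24.6 in parental 1 and 2. If models share a repeat, a read can match several of them, and the counts of single models are then uncertain and not independent of each other. Reads counted in more than 1 model would also make the intervals of the sums too narrow. Their sequences were not analysed here.

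Predicted models as a class did not follow this pattern. The 9163 models outside the members took 5.31% and 5.38% of reads in clones 18 and 12, 5.22% in clone 4, and 5.27% and 5.55% in parental 1 and 2. In the 1631 tested among them the median of clone 18 over clone 12 was 0.983, and 5 were at least 4-fold lower in clone 4 than in both other clones on value + 1. Gm10106 was among these 5, at 72.9 and 29.5 in clones 18 and 12 with no read in clone 4 or either parental library.

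Small nuclear and small nucleolar RNA genes took 0.00313% and 0.00304% of reads in clones 18 and 12, 0.00224% in clone 4, and 0.00194% and 0.00223% in parental 1 and 2. Histone genes took 0.0194% and 0.0189% of reads in clones 18 and 12, 0.0349% in clone 4, and 0.0732% and 0.0941% in the parental libraries. Clone 4, where the models were lowest, was also the shallowest clone library. The part of these differences in the values of the models was not tested. With the reads of clones 12 and 18 thinned to the depth of clone 4 and the values rescaled, all 35 members still met the thresholds and 37 genes did so in all. Clone 4 kept all its reads in this step, so it cannot show whether a transcript without reads in clone 4 is absent.

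The other 21 members differed more in which clone stood apart. A clone was said to stand apart when it lay farther from the middle of the 3 values on the log2(value + 1) scale than the clone at the opposite end. Where a clone had no read, this label can depend on the 1 added, and other added values were not tried for it. In Slc6a8 and Mmp12 the middle value lay almost midway, so their labels are the least certain. Clone 4 was high alone in 7 of the 21 and low alone in 6, clone 12 was high alone in 2 and low alone in 3, and clone 18 was high alone in 2 and low alone in 1. Clone 4 thus stood apart in 61.9% of these members. Without clone 4, 6 genes would meet the thresholds in place of 35. Of all 13132 tested genes, 1.39% differed 10-fold or more between the highest and lowest clone on value + 1. Among the 328 tested non-members that varied at least 4-fold between clones, clone 4 stood apart in 44.5%, clone 18 in 32.3% and clone 12 in 23.2%.

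**Figure D3:**
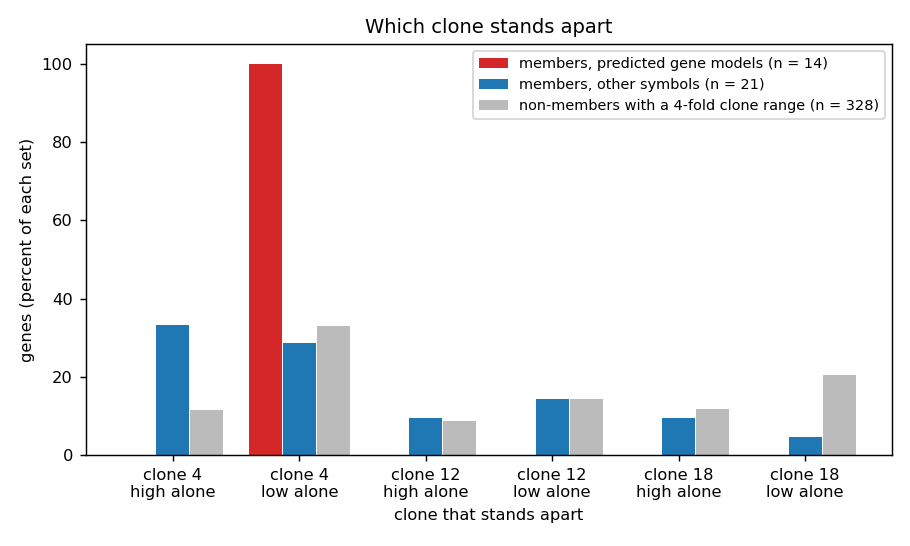
Share of genes, in percent of each set, by the clone that stood apart and its direction. All 14 predicted gene models (red) had clone 4 low alone. The 21 other members (blue) had clone 4 high alone in 7 and low alone in 6. The 328 non-members with a 4-fold clone range (grey) were led by clone 4 low alone.

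The 7 members high in clone 4 alone were Gpnmb, Pkp4, Lpl, Slc6a8, Cd36, Ctss and Ahnak2. Gpnmb, a lysosomal transmembrane glycoprotein of macrophages and melanocytes, was at 592.9 normalized reads in clone 4 and had no read in clones 12 and 18 or in either parental library. Against the limit of 3 reads per library it was at least 125-fold higher in clone 4 than in the other clones. Cd36, a scavenger receptor that takes up fatty acids and oxidized lipoproteins, was at 141.6 in clone 4, at 1.59 (1 read) in clone 18 and without a read in clone 12 and in both parental libraries. For these 2 genes no other library held more than 1 read.

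Lpl, the lipase that frees fatty acids from circulating lipoproteins, was at 328.2 in clone 4 with no read in clones 12 and 18, and at 6.21 and 11.1 in parental 1 and 2. Its value in clone 4 was at least 69.0-fold higher than in the other clones, and the parental libraries lay near the low end. Ctss, the lysosomal protease cathepsin S, was at 112.8 in clone 4, 7.39 in clone 12 and without a read in clone 18, with 12.4 and 25.8 in parental 1 and 2. Ahnak2, a very large scaffold protein, was at 106.7 in clone 4, 3.69 in clone 12 and without a read in clone 18. Its parental libraries differed, at 35.7 and 6.87 in parental 1 and 2.

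Slc6a8, the creatine transporter, was at 199.0 in clone 4, 12.7 in clone 18 and without a read in clone 12. Parental 1 had no read of it and parental 2 was at 6.11, so the parental cells lay with clones 12 and 18. Pkp4, a plakophilin of cell junctions, differed from the rest of this group in its parental level. It was at 357.0 in clone 4 with no read in clones 12 and 18, while parental 1 and 2 were at 1129.5 and 1407. Clone 4 was at least 75.1-fold higher than the other clones, and all 3 clones lay below both parental libraries.

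Gpnmb, Cd36, Ctss and Lpl are known from macrophages, so the summed level of the 19 monocyte and macrophage markers found in the files is given beside them. It was 27231 normalized reads in clone 4, against 16278 and 21079 in clones 12 and 18, and 30169.7 and 27523 in parental 1 and 2. F13a1 and Ccr2 made up 91.8% to 96.1% of this sum in each library. Without them the other 17 markers summed to 2049 in clone 4, 1267 and 1718 in clones 12 and 18, and 1176 and 1285 in parental 1 and 2. With these 2 genes the parental libraries lay above every clone, and without them they lay below clones 18 and 4. Clone 4 was the highest clone in 9 of the 13 markers tested and clone 18 in 4, while clone 4 was highest in 5012 of all 13132 tested genes. A high share was not particular to these markers. Clone 4 was also highest in 10 of 16 tested interferon response genes and 9 of 14 tested integrins and cadherins. In the neutrophil list it was highest in 2 of 9, and in the B cell list in 4 of 11. The 9 monocyte and macrophage markers included Emr1, Csf1r, Cd68 and Cd163, and also Ctss, which was chosen by its clone values. Cd14, at 48.0, 131.6 and 26.7 in clones 12, 18 and 4, and Irf8 were lowest in clone 4. Klf4 and Ly6c2 had no read in clones 12 and 4. Lyz1 and Lyz2 had no read in any of the 5 libraries. The part of such cells in these members was not tested, and in bulk RNA fewer cells of a type and less RNA per cell cannot be told apart.

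Of the 6 members low in clone 4 alone, 5 are described here: H2afy2, Lass4, Nfatc2, Ptpru and Mmp8. H2afy2, a macroH2A histone variant of silenced chromatin, was at 158.8 in clone 12 and 61.8 in clone 18 with no read in clone 4, and at 1.55 and 5.50 in parental 1 and 2. Lass4, a ceramide synthase, was at 62.8 and 115.7 in clones 12 and 18 with no read in clone 4 or parental 1 and 1.07 in parental 2. Nfatc2, a transcription factor activated by calcineurin, was at 18.5 and 120.5 in clones 12 and 18, without a read in clone 4 or parental 1, and at 0.153 (1 read) in parental 2. In these 3 genes the parental libraries lay with clone 4, as they did for the predicted gene models.

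Ptpru and Mmp8 were different, with the parental libraries on the high side. Ptpru, a receptor tyrosine phosphatase, was at 30.8 and 120.5 in clones 12 and 18 without a read in clone 4, and at 166.2 and 126.6 in parental 1 and 2. Mmp8, the neutrophil collagenase stored in granules, was at 36.9, 125.2 and 4.10 in clones 12, 18 and 4 and at 153.8 and 106.3 in parental 1 and 2. Clone 18 was the highest clone in 4 of these 5 genes, H2afy2 being the exception.

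**Figure D4:**
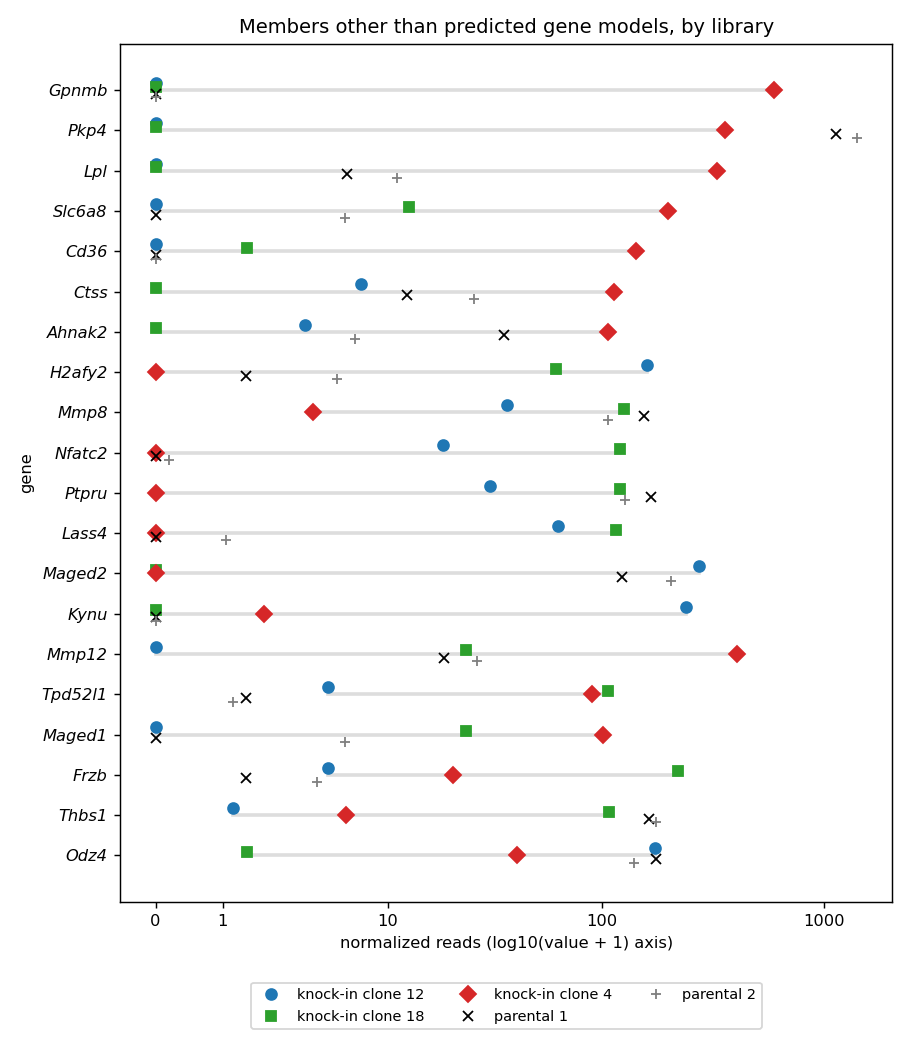
Normalized reads of 20 of the 21 members other than predicted gene models in each library, on a log10(value + 1) axis, with a grey bar over the range of the clones. Clone 4 (red) lies at the right end of the grey bar in the top 7 rows and at its left end in the next 5. The parental libraries (crosses) fall near either end, between the ends, or beyond the bar as in Pkp4.

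Clone 12 stood apart in 5 members. Kynu, the kynureninase of tryptophan breakdown, was at 238.8 in clone 12, without a read in clone 18 and at 2.05 (1 read) in clone 4, and neither parental library had a read. Maged2, an adaptor protein of the MAGE family, was at 274.5 in clone 12 with no read in clones 18 and 4, which makes it at least 44.6-fold higher in clone 12, and at 122.7 and 204.4 in parental 1 and 2. Kynu was thus abundant in 1 clone and not detected in the parental line, whereas Maged2 was abundant in the parental line and not seen in 2 of its clones.

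The members low in clone 12 alone included 2 in which clone 4 was far above clone 18. Mmp12, the macrophage elastase, was at 404.1 in clone 4 and 23.8 in clone 18 without a read in clone 12, and at 18.6 and 26.7 in parental 1 and 2. Maged1, another MAGE family adaptor, was at 100.5 in clone 4 and 23.8 in clone 18 without a read in clone 12, and it had no read in parental 1 and 6.11 in parental 2. Tpd52l1, a coiled-coil protein of vesicle traffic, was at 106.2 and 90.3 in clones 18 and 4 and 4.92 in clone 12, and at 1.55 and 1.22 in parental 1 and 2. Every clone lay above both parental libraries for Tpd52l1, clone 12 with only 4 reads.

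Clone 18 stood apart in 3 members. Frzb, a secreted inhibitor of Wnt ligands, was at 218.7 in clone 18, 20.5 in clone 4 and 4.92 (4 reads) in clone 12. Its values of 1.55 and 4.27 in parental 1 and 2 were below every clone. Thbs1, the matrix protein thrombospondin-1, was at 107.8 in clone 18, 6.15 in clone 4 and 1.23 in clone 12, and at 163.1 and 174.8 in parental 1 and 2, above every clone. Odz4, the transmembrane protein teneurin-4, was at 1.59 (1 read) in clone 18 but at 173.6 and 41.0 in clones 12 and 4, with 174.0 and 139.5 in parental 1 and 2.

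Maged1, Maged2 and Slc6a8 are known to lie on the X chromosome. Chromosome positions were not analysed here, so no share of X-linked genes among all tested genes is given beside them. Xist, the RNA that coats the inactive X, was at 7785, 6932 and 7381 in clones 12, 18 and 4 and at 5899 and 2913 in parental 1 and 2. The Y-linked markers looked up (Ddx3y, Uty, Kdm5d, Eif2s3y, Usp9y, Zfy1, Zfy2 and Sry) had no read in any of the 5 libraries. Slc6a8 and Maged1 shared an order of libraries, with clone 4 highest, clone 18 next and no read in clone 12 or parental 1, while Maged2 was highest in clone 12.

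The parental libraries, whose values the choice of members did not use, were most often at the low end. Both were at or below 10 in 22 of the 35 members (62.9%), both at or above 100 in 6, both between in 4, and in different classes in 3. Of the 10251 tested genes with a largest clone value of at least 100, both parental libraries were at or below 10 in 0.517% and at or above 100 in 92.2%. Those shares belong to genes that mostly have no low clone, which the members have by choice. Of the 22 members, 12 were predicted gene models and 10 were other genes. The 6 members with an abundant parental level were Maged2, Mmp8, Odz4, Pkp4, Ptpru and Thbs1.

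Both parental libraries lay within the range of the clones in 26 members, above every clone in 3 (Pkp4, Ptpru and Thbs1) and below every clone in 3 (Frzb, Tpd52l1 and Gm10801). Over all 13132 tested genes the corresponding shares were 17.0%, 25.8% and 24.5%. The lowest clone held only 3 reads of Gm10801 and 4 each of Frzb and Tpd52l1. Counting error thus limits their placement below every clone. Because a wide clone range was the criterion, nothing is read from the count within the range. In no member did the parental libraries differ 10-fold or more on value + 1, which 0.137% of tested genes did. They differed at least 2-fold in 13 members, against 4.68% of tested genes, and in 11 of these 13 both parental values were at or below 10, where few reads were counted in parental 1.

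The comparison of the 3 knock-in clones with the 2 parental libraries sets edited single-cell clones against the unedited line. Whether that line was itself grown from a single cell is not stated in the sample titles. No sample is titled as an unedited clone, so NPM1c, the GFP insert, the editing and the single-cell cloning cannot be told apart. By limma on log2(value + 1), with Benjamini-Hochberg adjustment over the 13132 tested genes, 16.0% of genes were called at an adjusted p under 0.05. None of the 35 members was among them, and 1 had an unadjusted p under 0.05. edgeR's quasi-likelihood test on the recovered reads called 0 members as well, with 15 at an unadjusted p under 0.05, against 16.8% of all tested genes called. DESeq2 called 16 members, all higher in the clones, as it did 9.88% of all tested genes. All 35 passed the filter on low values, since a value of 100 in 1 of the 5 libraries already lifts the mean above 10. Without clone 4, limma called 18 of the members and 16.1% of the 13144 genes then tested. The members were chosen for their spread between clones, which is the error of this test, and leaving out the clone that stood apart in most of them removes that spread. Nothing is read from these counts, with or without clone 4.

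The lists of lineage and pathway genes held 2 members among 132 tested genes (1.52%), beside 35 among all 13132 (0.267%). Ctss was the only member among 13 tested genes of the monocyte and macrophage list, in which 1 was higher in the clones (Emr1), 1 was lower (Klf4) and 11 did not pass (limma), with a median log2 fold change of -0.45 beside 0.01 over all tested genes. Over all tested genes 7.51% were higher and 8.49% lower in the clones. Clone 4 was the highest clone in 9 of the 13, Ctss included, clone 18 in 4 and clone 12 in none. Among all tested genes clone 4 was the highest clone in 5012 of 13132, and in the interferon response list in 10 of 16. Emr1, the macrophage surface receptor F4/80, was at 531.8, 659.4 and 937.5 in clones 12, 18 and 4 and at 153.8 and 190.5 in parental 1 and 2 (log2 fold change 2.01, SE 0.247, adjusted p = 0.00269, limma). The chemokine receptor Ccr2 was at 4063, 4522 and 7673 in clones 12, 18 and 4 and at 7908 and 8400 in the parental libraries. Irf8, a monocyte transcription factor, was lowest in clone 4, at 152.7, 180.7 and 39.0 in clones 12, 18 and 4, with 155.4 and 207.8 in parental 1 and 2.

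Mmp8 was the only member among 9 tested genes of the neutrophil list, of which 3 were lower in the clones (Csf3r, Elane and Prtn3), none was higher and 6 did not pass (limma, against the same 8.49% lower and 7.51% higher over all tested genes), with a median log2 fold change of -1.65. The 20 genes of this list found in the files summed to 19307, 28358 and 13564 normalized reads in clones 12, 18 and 4 and to 55509 and 48413 in parental 1 and 2. Clone 4 was the lowest clone in 6 of the 9 and clone 18 the highest in 6, while over all 13132 tested genes clone 4 was lowest in 4881 and clone 18 highest in 4393. Mpo, the myeloperoxidase of primary granules, was at 13845, 20009 and 7872 in clones 12, 18 and 4 and at 42873 and 38610 in parental 1 and 2. Cebpe, a regulator of granulocyte maturation, was at 72.6, 185.5 and 32.8 in clones 12, 18 and 4 and at 136.7 and 83.7 in the parental libraries. The order of the clones in Mmp8, with clone 18 highest and clone 4 lowest, was shared by Mpo, Cebpe, Ms4a3 and Prtn3. Mmp8 sets this order, was chosen by its clone values and is included in both counts of 6. How many of all tested genes have this order was not counted, so nothing is read from it. Csf3r and Ctsg were highest in clone 4, Lcn2 was highest in clone 12 and Elane was lowest in clone 12. The late granule genes Ngp, Camp, Ltf, S100a8 and S100a9 were too low to test in these libraries.

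The other 14 lists held no member among their 110 tested genes, which is close to the share over all tested genes. They cover mast cells and basophils, eosinophils, dendritic cells, MHC class II, erythroid cells, megakaryocytes, B cells, T and NK cells, stromal and endothelial cells, stem and progenitor regulators, imprinted genes, sex chromosome markers, interferon response, and integrins and cadherins.

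Just inside the upper threshold were Maged1, Tpd52l1 and Ahnak2, with largest clone values of 100.5, 106.2 and 106.7. Just outside were Fhit at 98.5, Nlrp3 at 96.7 and Xlr4b at 92.3. The largest of the smallest values among members were 6.15 in Gm10801 and in Gm16869 and 4.92 in Tpd52l1, and just outside were Lgals3 at 13.5, Ryr2 at 14.8 and Glyat at 16.4. Lgals3, which encodes galectin-3 of macrophages, was at 170.3 in clone 4, 13.5 in clone 12 and 14.3 in clone 18, with 9.32 and 10.4 in parental 1 and 2.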

How the data were processed

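Per the labels' protocols, RNeasy micro kits gave the RNA and NEBNext Ultra II the mouse libraries. Builds mm9 and hg19 and the tools DESeq2, RSEM and STAR 2.6.1 appear, without roles, in the submitters' processing notes. Which counter, annotation and strand setting were used is not given in the sources used here. The deposited values are a signal that, judged from the values alone, is reads per Ensembl gene divided by 1 size factor per library: 100% of values above 0 were whole multiples of the smallest value (tolerance 0.01), which gives the reads back. Symbols are those of the files, and none of the 823 genes without a symbol met the thresholds.

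The test was limma 3.58.1 with trend and robust moderation on log2(value + 1), in R 4.3.3. It covered 13132 of 37991 genes, those whose mean over the 5 libraries reached 10. Fold changes on that scale understate the change of low genes. Alternatives were edgeR 4.0.16, DESeq2 1.42.0, other thresholds, pseudocounts, filters and scalings, and each library left out. The fit was checked beforehand on data with known changes. No 2 libraries of a group agreed within sampling noise: chi-square per degree of freedom was 6.11 to 11.4 for pairs of clones and 25.5 for the parental pair. P-values measure only the spread between these libraries, which may be technical in the parental pair.

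The members, gene lists and tests were chosen with earlier results of these data known. Named genes were the 5 most abundant members per clone pattern, members on a list, the 3 genes on each side of each threshold, Npm1 and Hoxb8. The remaining members were added so that all but 1, which is not reported here, are accounted for, and other genes were chosen after their values were seen. Chromosome positions, promoters and sequences of the mouse genes were not analysed here.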

Additional observations from a re-analysis of the deposited data

How the results depend on the processing

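The number of members depended on the upper threshold: 75 genes met a threshold of 50 and 19 met 200, with clone 4 apart in 42 and 15 of them. Lower thresholds of 5 and 20 gave 33 and 43. Equal library totals and TMM scaling each gave the same 35 genes. With 1 clone left out, 6 to 26 genes met the thresholds, the 6 being those left without clone 4. Without the predicted gene models, a choice made after seeing the data, there were 21 members, with clone 4 apart in 13 and both parental libraries at or below 10 in 10. With 1 parental library left out, 23 to 24 of the 35 members lay at or below 10. The count of genes called by limma between clones and parental libraries was 2101, against 1271 without trend and robust moderation, 2206 with edgeR and 2681 with DESeq2. It ranged from 990 to 2115 with 1 library left out, the lowest without parental 2, and was 1023 without clone 12. With 1 library left out, 0 to 18 members were called, and DESeq2 called 16 members. No paired analysis was possible because the clones and the parental libraries share no replicate number. The planned counts per chromosome and of promoters were not run. Clone 4 has the fewest reads, so an absent transcript is least certain there.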

Other observations

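Some genes outside the thresholds also differed widely between clones, and these were chosen after their values were seen. The imprinted neighbours Sgce and Peg10, which are expressed from the paternal copy, were both lowest in clone 18. Of the 10 tested genes on the imprinted list, clone 18 was the lowest clone in 4 and the highest in 2, Nnat and Cd81. Over all 13132 tested genes clone 18 was lowest in 4422. Sgce was at 81.3, 1.59 and 69.8 in clones 12, 18 and 4 and at 225.3 and 272.8 in parental 1 and 2. Peg10 was at 1051, 137.9 and 1274 in clones 12, 18 and 4 and at 2146 and 2309 in parental 1 and 2. Neither passed the comparison of clones with parental libraries (adjusted p = 0.259 and 0.286, limma), and the difference between clones has no replicate.

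The mast cell tryptases Tpsg1 and Tpsb2 were lowest in clone 4. Tpsg1 was at 326.2, 396.3 and 28.7 in clones 12, 18 and 4 and Tpsb2 at 213.0, 361.4 and 75.9, and neither had a read in the parental libraries. Of the 12 tested genes on the mast cell and basophil list, clone 4 was the lowest clone in 4 and the highest in 5, Cpa3, Gata2 and Kit among the 5. Xlr4b, an X-linked gene, was at 92.3 in clone 4 with no read in clones 12 and 18, and at 539.1 and 583.8 in parental 1 and 2. L1cam, also X-linked, was at 91.1, 6.34 and 51.3 in clones 12, 18 and 4 and at 3.11 and 21.2 in parental 1 and 2. Pdgfrb, a growth factor receptor of stromal cells, was at 232.7 in clone 12, 55.5 in clone 18 and 24.6 in clone 4, with 24.9 and 32.2 in parental 1 and 2.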
